A study of Mus musculus with 6 samples.

Results

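The genes described here are the cyclins of the A, B, D and E classes, the numbered cyclin-dependent kinases (CDKs), the CDK inhibitors, the MCM2-7 replication helicase and a set of named proliferation markers. They were taken by symbol from a deposited table of 12968 genes, and 44 of those genes matched. The symbols were chosen with earlier results of these data known, and no gene in the table has a largest value under 10.6. The symbol pattern also took Cdkn2aip and Cdkn2aipnl, which are named after a CDK inhibitor locus but are neither kinases nor inhibitors of kinases, so 42 are cell cycle genes by name or their kinase relatives. The table holds RNA bound to tagged ribosomes from 6 mice. RiboTag is an allele that tags the ribosomal protein Rpl22 where Cre recombinase acts, so that ribosomes and their RNA can be precipitated. In the 3 MCAO mice a middle cerebral artery was blocked for 1 h, and tissue was taken after 3 days. The 3 control mice had no occlusion. Tissue was the middle section of the left brain hemisphere in both groups, and the RNA of each animal was precipitated 2 times and pooled. All 6 animals went through the same precipitation. The labels used here give no strain, age, sex, Cre driver or sham operation.

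Cyclins are the regulatory partners of CDKs. D cyclins with Cdk4 or Cdk6 drive cells out of G1 by phosphorylating the retinoblastoma protein, which frees E2F factors to switch on genes of DNA replication. E and A cyclins with Cdk2 carry cells through S phase, and A and B cyclins with Cdk1 carry them into mitosis. The MCM2-7 proteins form the helicase ring that licenses and unwinds replication origins, and inhibitors of the INK4 and CIP/KIP families hold the kinases back. Most mature brain cells do not divide, while microglia, oligodendrocyte precursors and some astrocytes can re-enter the cycle after injury. Several numbered CDKs act outside the cell cycle, in transcription or in postmitotic neurons.

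The deepest library, control 1, had 9519548 reads and the shallowest, MCAO 2, had 882263. Values are read counts divided by 1 factor per library, called scaled reads below. In MCAO 2, 1 read is worth 3.11 scaled reads, and in control 1 it is worth 0.288. Values under 1 are listed as 1, the minimum of the table. Genes were tested with limma where the mean over the 6 libraries was at least 10, and a gene is called at a Benjamini-Hochberg adjusted p under 0.05 over all 12549 genes tested. A positive log2 change means a higher level after MCAO. It is computed on log2(scaled reads + 1), where the added 1 shrinks the changes of genes with few reads. Such a change can still exceed that of another method, as for Cdkn2c (2.09 by limma and 1.92 by edgeR). Each library is 1 animal, and the labels give no batch.

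The precipitated RNA was not that of 1 cell type. All 12 listed astrocyte markers were in the table, as were all 10 neuron markers, all 12 oligodendrocyte markers and all 16 microglia markers, and none of these stood at the minimum in any library. Microglia markers summed to 695 to 961 scaled reads in controls and 2535 to 3436 after MCAO, and 12 of 16 were called higher. Of 12 oligodendrocyte markers 7 were called higher, with sums of 8483 to 9652 and 12684 to 16111. Of 10 oligodendrocyte precursor markers 1 was called higher, and at an unadjusted limma p under 0.05, 4 were higher and 1 lower. Their sums overlapped at 1570 to 2087 and 1673 to 2201. These sums hold Ptprz1, the marker with the highest control mean, which went from a mean of 921 to 590 and was not called. Of 12 astrocyte markers only Gfap was called, with 1 higher and 2 lower at an unadjusted limma p under 0.05. The sums overlapped at 25891 to 41536 and 30097 to 40002. Neuron markers summed to 15414 to 18433 and 14786 to 17107, with 0 of 10 called by limma or edgeR and 0 at an unadjusted p under 0.05. Of 10 lymphocyte markers 0 were in the table. Of 12 blood myeloid markers 4 were in the table and 2 were tested; both were called higher, and the sums were 22.4 to 37.7 and 130 to 148. Of 10 endothelial and mural markers 6 were in the table and 0 were called, with 1 lower at an unadjusted p under 0.05 and 0 called by edgeR. In bulk RNA, more cells of a type cannot be told apart from more RNA per cell.

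Of the 44 genes 40 were tested. Ccna2, Cdc20, Cdk2 and Plk1 had a mean under 10. After MCAO 6 of the 40 were higher, namely Ccnd1, Mki67, Cdk1, Top2a, Aurka and Mcm5, where 2.3% of all tested genes were called higher. None was called lower (0.789% of all tested genes), and DESeq2 called none lower either. At an unadjusted limma p under 0.05, 13 members were higher and 3 lower, against 10.1% and 9.16% of all tested genes. By edgeR 9 members were higher (3.06% of all tested genes), the same 6 with Cdkn2c, Mcm3 and Rrm2, and 0 were lower (1.08%). The median log2 change of the 40 was 0.28, against -0.01 over all tested genes, and 28 changes were positive and 12 negative. The filter bears on these counts. In 7 tested members the control mean was under 10, so that they entered through their MCAO values, and 4 of the 7 were called higher, where 23.8% of all tested genes with such a control mean were called higher. Of the 33 with a control mean of at least 10, 2 were called higher, against 1.73% of such genes. Without MCAO 3 the count of 6 fell to Ccnd1 alone, and without MCAO 1 it was 3.

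**Figure D1:**
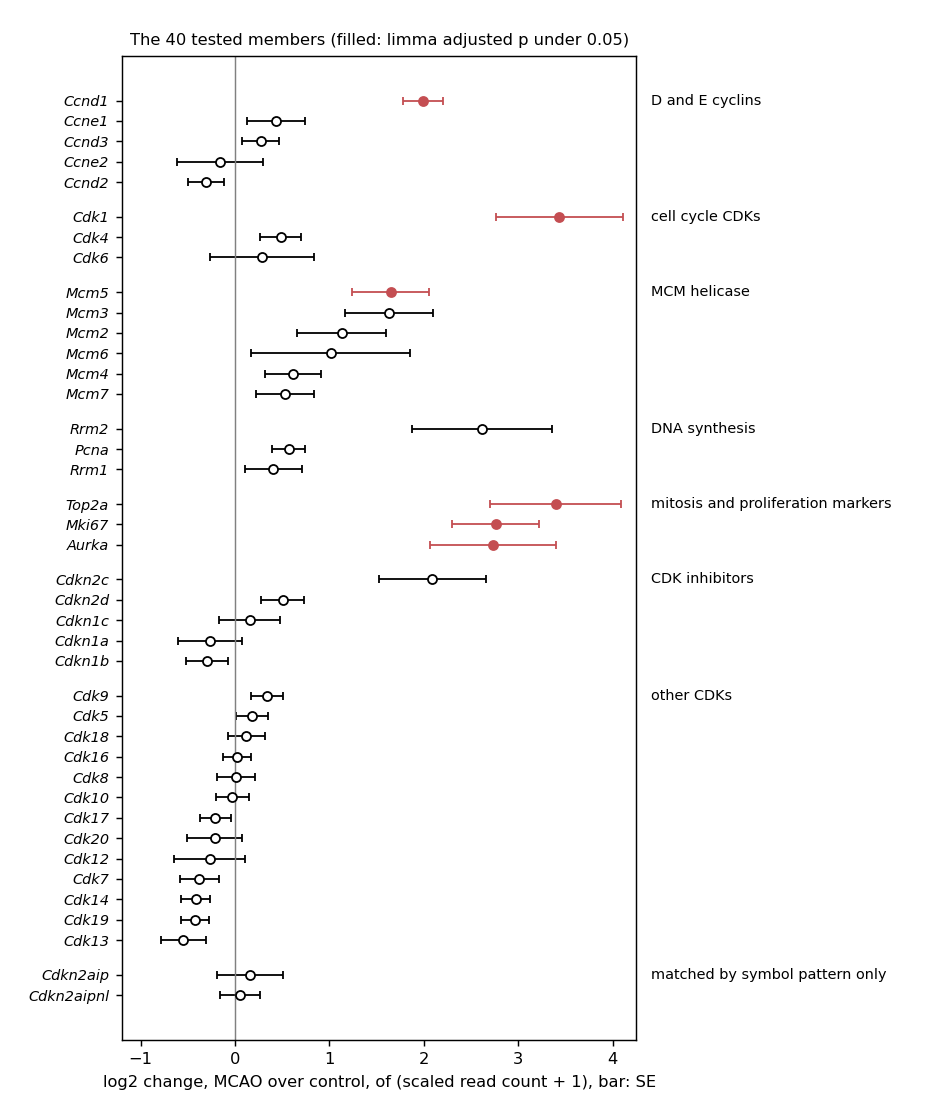
Log2 change after MCAO (x axis, of scaled reads + 1) of the 40 tested genes, grouped by role (y axis); bars are the moderated SE over 3 animals per group, and filled red points passed the limma test. The 6 filled points lie between 1.65 and 3.44, while the CDKs other than Cdk1, Cdk2, Cdk4 and Cdk6 lie between -0.55 and 0.34.

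The promoters of 4 called members are shown with the matches they hold to 3 sequence elements of cell cycle promoters. The CHR element, here TTTGAA or TTCGAA, and the CCAAT box are known from promoters that peak in G2 and mitosis, and the E2F element, here TTTCCCGC, TTTGGCGC, TTTGCCGC or TTTCGCGC, from promoters of DNA replication genes. Both strands were searched from 250 bases before to 50 bases after the RefSeq start (build GRCm38.p6). RefSeq promoters were found for 35 of the 44 genes; Ccna2, Ccnd1, Ccnd2, Ccne2, Cdk5, Cdk17, Cdk19, Cdkn1c and Mcm4 had none. In the lines below capitals mark CHR, CCAAT and E2F matches on either strand, and bases inside the annotated gene are left out.
Cdk1 (chr10:69352913-69353162, minus strand): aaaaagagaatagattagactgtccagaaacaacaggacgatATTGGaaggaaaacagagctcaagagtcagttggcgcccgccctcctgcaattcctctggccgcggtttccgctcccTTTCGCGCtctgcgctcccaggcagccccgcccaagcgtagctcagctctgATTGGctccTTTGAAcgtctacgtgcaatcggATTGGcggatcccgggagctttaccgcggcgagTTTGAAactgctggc
Mki67 (chr7:135716451-135716629, minus strand): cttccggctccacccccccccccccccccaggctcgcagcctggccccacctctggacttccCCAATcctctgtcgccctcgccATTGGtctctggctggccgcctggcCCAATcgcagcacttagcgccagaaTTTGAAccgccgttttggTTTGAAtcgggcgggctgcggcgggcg
Top2a (chr11:99024200-99024439, minus strand): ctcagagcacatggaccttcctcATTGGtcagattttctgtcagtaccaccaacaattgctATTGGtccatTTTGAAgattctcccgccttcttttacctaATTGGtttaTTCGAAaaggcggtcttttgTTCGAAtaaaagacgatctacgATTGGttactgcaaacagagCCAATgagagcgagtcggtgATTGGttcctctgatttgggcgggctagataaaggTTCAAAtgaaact
Mcm5 (chr8:75109259-75109467, plus strand): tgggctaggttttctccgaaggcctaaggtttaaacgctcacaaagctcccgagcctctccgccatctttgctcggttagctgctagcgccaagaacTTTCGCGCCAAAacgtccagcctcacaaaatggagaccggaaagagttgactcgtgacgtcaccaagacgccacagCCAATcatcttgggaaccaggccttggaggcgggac

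In Cdk1 the CHR letters start at -71 and -15 from the start site, next to CCAAT boxes on the opposite strand at -80 and -48, and the E2F letters TTTCGCGC start at -131. The CHR matches of Mki67 start at -116 and -98. Top2a holds 6 CCAAT boxes, with CHR matches at -179, -140, -120 and -23; its TTCGAA matches read the same on both strands. Mcm5 has no CHR match in this window and 2 overlapping E2F matches at -153 and -149. Aurka, whose window lies inside the annotated gene and is not printed, has CCAAT boxes at -51 and -19 and a CHR match 33 bases after the start. A CHR match and a CCAAT box were both present in all 5 of the mitosis and proliferation markers of the table, Aurka, Cdc20, Mki67, Plk1 and Top2a. No share over all tested genes was taken for this pair. A CHR match was found in 4 of the 5 called members with a promoter, a CCAAT box in 5 and an E2F match in 2. Of all 35 members with a promoter, called or not, 9 hold a CHR match, 24 a CCAAT box and 6 an E2F match. Of 9367 tested genes with a promoter, 15.0% hold a CHR match, 42.9% a CCAAT box and 4.51% an E2F match, and of all 32851 mouse promoters 19.2%, 37.4% and 2.27%. Of the 5 MCM genes with a promoter, Mcm3, Mcm5, Mcm6 and Mcm7 had an E2F match. Among the 10 CDKs other than Cdk1, Cdk2, Cdk4 and Cdk6 that have a promoter, 1 had a CHR match (Cdk16) and 0 an E2F match. A match describes the letters of the window and not binding by a factor.

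Cyclin D1 was the member with the smallest p, while Ccnd2, Ccnd3 and the E cyclins were not called by limma, edgeR or DESeq2. Ccnd1 (chromosome 7, 144929931 to 144939831), the D cyclin whose transcription responds to growth factor signals, stood at 102, 69.2 and 109 scaled reads in controls 1 to 3 and at 325, 317 and 480 in MCAO 1 to 3. The lowest MCAO library lay far above the highest control. The means were 93.2 ± 21.1 and 374 ± 91.6 (SD, n = 3 each). The log2 change was 1.99 (SE 0.21, limma adjusted p = 0.000102), and Ccnd1 was called under every alternative run. Ccnd2 (chromosome 6, 127125162 to 127152188), a D cyclin of neural progenitors, stood at 281, 263 and 258 in controls and 156, 249 and 257 after MCAO. All 3 MCAO values lay below all 3 controls, MCAO 3 by about 1 scaled read, and the log2 change of -0.31 (SE 0.19, limma adjusted p = 0.397) did not pass the test. Ccnd3 stood at 102, 92.2 and 125 in controls and 107, 131 and 150 after MCAO, with overlapping groups (0.27, SE 0.20).

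The ratio of Ccnd1 to the other D cyclins was higher in every MCAO animal than in any control. The ratio of Ccnd1 to Ccnd2 scaled reads was 0.363, 0.263 and 0.421 in controls and 2.08, 1.27 and 1.87 after MCAO. The ratio of Ccnd1 to Ccnd3 was 0.994, 0.750 and 0.867 in controls and 3.03, 2.43 and 3.20 after MCAO. Both ratios were higher in 3 of 3 MCAO libraries, by 2.31 (SE 0.29) and 1.73 (SE 0.17) on the log2 scale. The 2-sided exact permutation p was 0.1 for each, also after adjustment over these 2 ratios, and 0.1 is the smallest p that 3 against 3 animals allow. For Ccnd1 to Ccnd2 this p was fixed in advance, since all MCAO libraries lay above the controls in Ccnd1 and below them in Ccnd2. Both ratios hold the Ccnd1 values and are no separate result. These ratios are set between groups, since gene lengths enter the ratio within a library.

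The E cyclins, which pair with Cdk2 at the start of S phase, overlapped between groups. Ccne1 stood at 23.6, 42.6 and 30.2 in controls and 41.8, 52.9 and 34.6 after MCAO (log2 change 0.43, SE 0.31, limma adjusted p = 0.477). Ccne2 was at 11.8 to 22.6 in controls and 9.33 to 18.6 after MCAO, with a log2 change of -0.16 (SE 0.45).

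**Figure D2:**
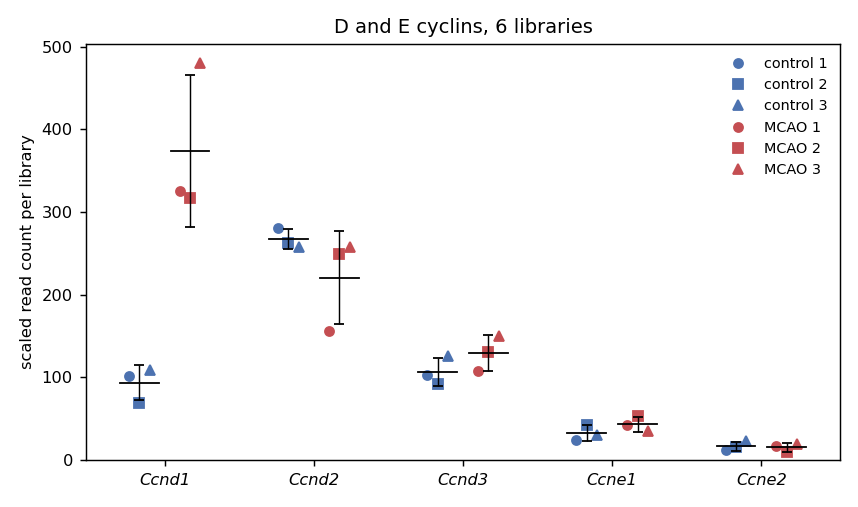
Scaled reads (y axis) of the D and E cyclins in the 3 control and 3 MCAO libraries; each point is 1 animal, lines are group means and bars the SD. Ccnd1 lies at 69.2 to 109 in controls and 317 to 480 after MCAO, while Ccnd3, Ccne1 and Ccne2 overlap.

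Of the A and B cyclins only Ccna2 was in the table. Ccna2 (chromosome 3, 36564865 to 36573038), the cyclin of S phase and G2, stood at 3.45, 5.32 and 3.02 in controls and at 14.1, 6.22 and 20.0 after MCAO. MCAO 2 rests on 2 reads, with an exact 95% Poisson interval of 0.753 to 22.5 scaled reads that covers counting error only and spans both groups. Ccna2 was under the filter; tested with no filter its log2 change was 1.45 (SE 0.62, limma adjusted p = 0.222). Ccna1, Ccnb1, Ccnb2 and Ccnb3 were not in the table.

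Each of the 5 markers of mitosis and of cycling cells was higher in every MCAO library than in any control, and each was under 7 scaled reads in the controls except Top2a in control 2. Mki67 (chromosome 7, 135689784 to 135716450), which encodes the Ki-67 protein that coats mitotic chromosomes, stood at 3.45, 3.55 and 6.04 in controls, from 12, 2 and 4 reads. After MCAO it stood at 33.5, 34.2 and 35.3, from 57, 11 and 53 reads. The MCAO values were close to each other and all above the controls, with means of 4.35 ± 1.46 and 34.3 ± 0.891 (SD, n = 3 each). MCAO 2 has an exact 95% Poisson interval of 17.1 to 61.2 scaled reads. The SD of 0.891 is smaller than this counting error and does not show how alike the animals were. The log2 difference was 2.76 (SE 0.46, limma adjusted p = 0.00441, and 0.0514 without MCAO 3). Top2a (chromosome 11, 98992947 to 99024199), the topoisomerase that untangles replicated chromosomes, stood at 1.15 and 14.2 in controls 1 and 2, at the minimum in control 3, and at 34.7, 37.3 and 54.6 after MCAO. Control 2 stands apart from the other controls with 8 reads, against 4 reads in the far deeper control 1. The log2 change was 3.40 (SE 0.69, limma adjusted p = 0.0164), and it was not called without MCAO 3 (0.105), with no intensity trend (0.104) or by DESeq2 (0.158).

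Aurora kinase A, which builds the spindle poles, was also above every control in each MCAO library. Aurka (chromosome 2, 172356190 to 172370886) stood at 3.45 and 1.51 in controls 1 and 3, at the minimum in control 2, and at 22.4, 18.7 and 13.3 after MCAO. Its log2 change was 2.73 (SE 0.67, limma adjusted p = 0.0408), and it was not called with any 1 of the 6 libraries left out (0.0586 to 0.145), with both shallowest libraries left out (0.0527), with TMM factors (0.0570) or with a pseudocount of 0.1 (0.0548). Cdc20 (chromosome 4, 118432901 to 118437343), which activates the anaphase-promoting complex, stood at 2.30, 5.32 and 1.51 in controls and 17.6, 12.4 and 13.3 after MCAO. Plk1 (chromosome 7, 122159435 to 122169884), the polo kinase of mitotic entry, stood at 2.30, 5.32 and 4.53 in controls and 8.24, 21.8 and 17.3 after MCAO. In Cdc20 and in Plk1 the group values did not overlap, but the gap lies within counting error. Control 2 rests on 3 reads in each, with an exact 95% Poisson interval of 1.10 to 15.6 scaled reads. The intervals of Cdc20 in MCAO 2 (4 reads, 3.39 to 31.9) and of Plk1 in MCAO 1 (14 reads, 4.50 to 13.8) overlap it. Cdc20 and Plk1 were under the filter, and with no filter limma did not call them (Cdc20 2.03, SE 0.62, adjusted p = 0.0962, and Plk1 1.69, SE 0.60, adjusted p = 0.144). Summed over these 5 markers, the level was 12.7, 29.4 and 14.6 scaled reads in controls and 116, 124 and 134 after MCAO. All but Top2a could enter the table only through their MCAO values, which bears on these sums too. Aurkb, Birc5, Bub1 and Bub1b were not in the table.

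**Figure D3:**
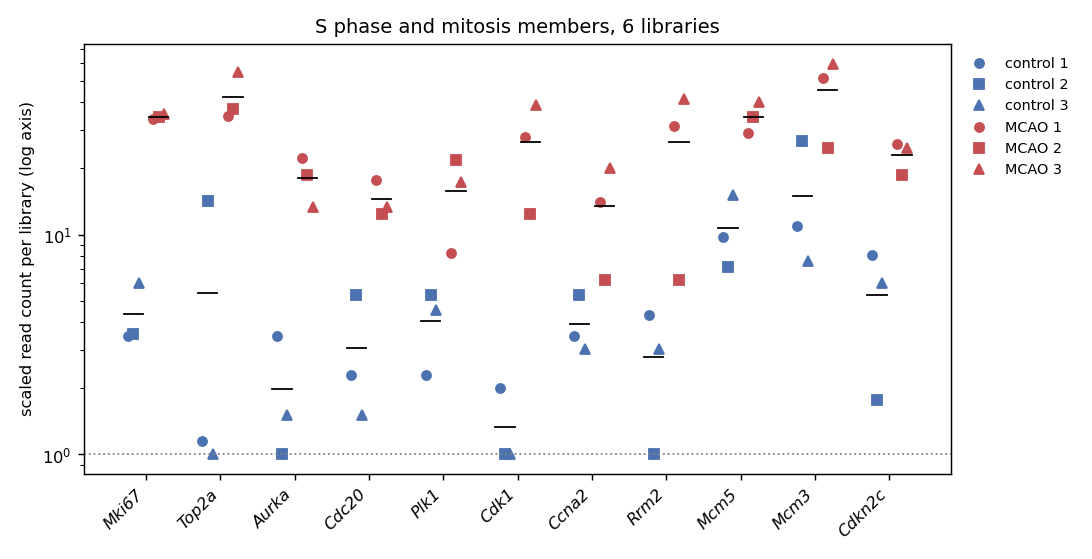
Scaled reads (y axis, log scale) of 10 S phase and mitosis members and the inhibitor Cdkn2c in 3 control and 3 MCAO libraries; each point is 1 animal, short lines are arithmetic means and the dotted line is the minimum of 1. Groups do not overlap except for Mcm3, and MCAO 2 is the lowest MCAO library in Cdc20, Cdk1, Ccna2, Rrm2, Mcm3 and Cdkn2c but not in Mki67, Top2a, Aurka, Plk1 or Mcm5. All but Top2a, Mcm5 and Mcm3 had controls under 10.6 and could enter the table only through their MCAO values.

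Among the kinases that drive the cycle, Cdk1 rose. Cdk1 (chromosome 10, 69335146 to 69352912), the kinase of mitotic entry, had 7 reads in control 1, the deepest library, which is 2.01 scaled reads, and stood at the minimum in controls 2 and 3. After MCAO it stood at 27.7, 12.4 and 38.6, from 47, 4 and 58 reads. MCAO 2 was lowest and still above every control. The log2 change of 3.44 (SE 0.67, limma adjusted p = 0.0134) depends on the minimum listed in 2 controls, and its call was lost without MCAO 1 (0.0816) and without MCAO 3 (0.129).

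Cdk4, the D cyclin partner, stood at 138, 110 and 148 in controls and 226, 131 and 208 after MCAO, with means of 132 ± 19.6 and 188 ± 50.7 (SD, n = 3 each). MCAO 2 lay within the control range, and the log2 change of 0.48 (SE 0.21, limma adjusted p = 0.236) did not pass; with both the shallowest control (control 2) and MCAO 2 left out it was 0.60 (0.0483). Cdk6, its close relative, was at 7.10 to 13.6 in controls and 6.22 to 18.6 after MCAO (0.28, SE 0.55). Cdk2, the partner of cyclins E and A, was under the filter at 2.30, 5.32 and 10.6 in controls and 7.65, 15.6 and 17.3 after MCAO, with overlapping groups.

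All 6 genes of the MCM helicase had positive log2 changes, with a median of 1.07, and 1 passed the test. Mcm5 (chromosome 8, 75109468 to 75128439) stood at 9.79, 7.10 and 15.1 in controls and 28.8, 34.2 and 40.0 after MCAO. The groups did not overlap, and the log2 change was 1.65 (SE 0.40, limma adjusted p = 0.0414); it was called without control 3 but with no other single library left out (0.0825 to 0.164), nor with both shallowest libraries left out (0.0661) or quantile normalisation (0.0535). Mcm3 (chromosome 1, 20802966 to 20820312) stood at 10.9, 26.6 and 7.55 in controls and 51.8, 24.9 and 59.9 after MCAO. Control 2 and MCAO 2 crossed, and the log2 change of 1.63 (SE 0.47) did not pass in limma (adjusted p = 0.0786), while edgeR called it (0.0154), as did limma without control 2 (0.0261).

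Mcm2 stood at 14.1, 7.10 and 21.1 in controls and 28.8, 18.7 and 47.3 after MCAO (log2 change 1.13, SE 0.47, limma adjusted p = 0.208). Mcm4 was higher in each MCAO library, at 40.0 to 55.3 against 22.6 to 37.3 (0.61, SE 0.30, limma adjusted p = 0.274). Mcm7 overlapped, at 27.2 to 39.0 in controls and 31.8 to 58.6 after MCAO (0.53, SE 0.31). Mcm6 rests on few reads, with control 3 at the minimum and 1 read in MCAO 2, and stood at 9.79 and 10.6 in controls 1 and 2 and 17.6, 3.11 and 26.0 after MCAO (1.01, SE 0.84). Summed over the 6 genes, the level was 105, 128 and 94.6 scaled reads in controls and 199, 177 and 287 after MCAO.

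Genes that supply nucleotides and hold the polymerase to DNA were higher in most MCAO libraries without passing the test. Rrm2 (chromosome 12, 24708254 to 24714146), the S phase subunit of ribonucleotide reductase, stood at 4.32 and 3.02 in controls 1 and 3, at the minimum in control 2, and at 31.2, 6.22 and 41.3 after MCAO. MCAO 2 was the lowest MCAO library and rests on 2 reads. The log2 change was 2.62 (SE 0.75, limma adjusted p = 0.0762); Rrm2 was called by edgeR (3.14, adjusted p = 0.00598) and by limma without MCAO 2 (0.0140). Pcna (chromosome 2, 132249286 to 132253180), the sliding clamp of DNA polymerase, stood at 119, 114 and 151 in controls and 182, 171 and 215 after MCAO. Its groups did not overlap, and the log2 change of 0.57 (SE 0.18, limma adjusted p = 0.101) did not pass. Rrm1, the large reductase subunit, overlapped, at 42.3 to 81.6 in controls and 49.4 to 99.5 after MCAO (0.40, SE 0.30). Tyms was not in the table.

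Of 5 CDK inhibitors 0 were called by limma (2 at an unadjusted p under 0.05), and 1, Cdkn2c, was called by edgeR. Cdkn2c (chromosome 4, 109660876 to 109666756), which encodes the INK4 protein p18, stood at 8.06, 1.77 and 6.04 in controls and 25.9, 18.7 and 24.6 after MCAO. The groups did not overlap, with means of 5.29 ± 3.21 and 23.1 ± 3.86 (SD, n = 3 each). The log2 change of 2.09 (SE 0.57) had an adjusted p of 0.0626 in limma, 0.0306 in edgeR and 0.0329 in DESeq2. Cdkn2d, which encodes the INK4 protein p19, was at 54.4, 94.0 and 75.5 in controls and 93.0, 115 and 105 after MCAO (0.51, SE 0.23, limma adjusted p = 0.241); MCAO 1 lay just under control 2.

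The CIP/KIP inhibitors overlapped between groups. Cdkn1a, which encodes the p53 target p21, stood at 42.3, 31.9 and 49.8 in controls and 32.4, 21.8 and 54.0 after MCAO (log2 change -0.27, SE 0.34, limma adjusted p = 0.719). Cdkn1b, which encodes p27, a brake of quiescent cells, stood at 181, 95.8 and 152 in controls and 117, 109 and 111 after MCAO (-0.30, SE 0.22, limma adjusted p = 0.490). Cdkn1c, which encodes p57, was at 21.3 to 37.7 in controls and 28.0 to 39.3 after MCAO (0.16, SE 0.32). Cdkn2a, Cdkn2b and Cdkn3 were not in the table.

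Of the 13 numbered CDKs other than Cdk1, Cdk2, Cdk4 and Cdk6, 0 were called by limma, edgeR or DESeq2. Their log2 changes lay between -0.55 and 0.34 with a median of -0.21. In 3 of them, Cdk19, Cdk14 and Cdk13, all MCAO libraries lay below all controls, as in 12.5% of all tested genes. Each had an unadjusted limma p under 0.05, as 9.16% of all tested genes did in that direction. Cdk19, a kinase of the Mediator complex, stood at 302, 364 and 337 in controls and 258, 249 and 238 after MCAO (log2 change -0.42, SE 0.15, limma adjusted p = 0.133). Cdk14, a kinase linked to Wnt receptor signalling, stood at 648, 651 and 727 in controls and 606, 423 and 502 after MCAO (-0.42, SE 0.16, limma adjusted p = 0.166). Cdk13, which phosphorylates RNA polymerase II during elongation, stood at 77.4, 101 and 81.5 in controls and 64.1, 43.5 and 71.9 after MCAO (-0.55, SE 0.24, limma adjusted p = 0.230).

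Cdk9, the elongation kinase of P-TEFb, lay above all controls, at 154, 124 and 133 in controls and 162, 193 and 167 after MCAO (log2 change 0.34, SE 0.17, limma adjusted p = 0.283). Cdk5, the neuronal CDK activated by p35 in place of a cyclin, stood at 161, 218 and 235 in controls and 228, 227 and 234 after MCAO (0.18, SE 0.17, limma adjusted p = 0.590). Cdk16, a kinase of the PCTAIRE branch, stood at 697, 573 and 655 in controls and 652, 731 and 571 after MCAO (0.02, SE 0.15). Cdk7, Cdk8, Cdk10, Cdk12, Cdk17, Cdk18 and Cdk20 overlapped between groups, with log2 changes from -0.38 to 0.12. Cdkn2aip and Cdkn2aipnl overlapped too (0.16 and 0.05).

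**Figure D4:**
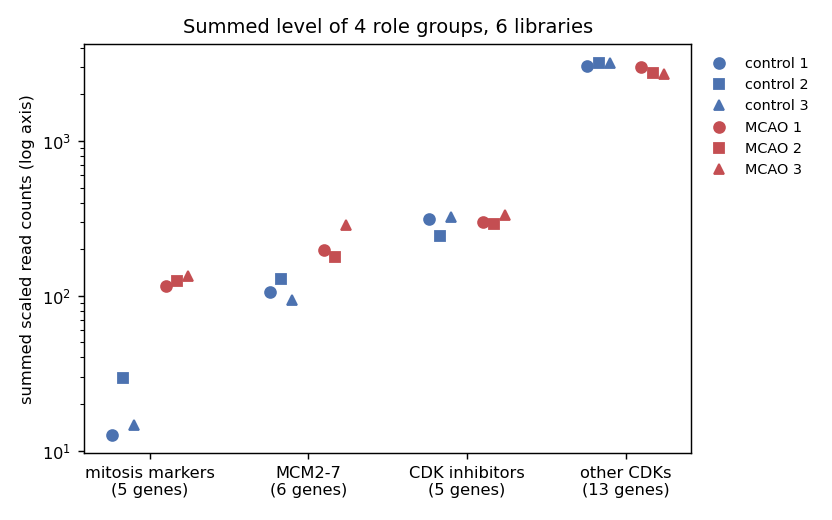
Scaled reads summed over the genes of 4 role groups (y axis, log scale) in each of the 6 libraries; each point is 1 animal. The 5 mitosis markers sum to 12.7 to 29.4 in controls and 116 to 134 after MCAO and the MCM genes to 94.6 to 128 and 177 to 287, while the sums of the CDK inhibitors overlap, and those of the other CDKs are 3035 to 3209 and 2704 to 3005. All mitosis markers but Top2a could enter the table only through their MCAO values.

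Over all tested members, the MCAO libraries lay above every control in 11 of 40 (12.4% of all tested genes) and below every control in 4 of 40 (12.5%). The filter bears on the count of 11. Aurka, Cdk1, Cdkn2c, Mki67, Rrm2 and Top2a had a control mean under 10 and were tested only through their MCAO values. The others above every control were Ccnd1, Cdk9, Mcm4, Mcm5 and Pcna. MCAO 2, the shallowest library, was the lowest MCAO library in Ccna2, Cdk1, Rrm2, Mcm2, Mcm3 and Mcm6 among others, and rests on 1 to 8 reads in these. It was not the lowest in Mki67, Plk1, Top2a, Aurka, Mcm4, Mcm5, Mcm7, Rrm1, Cdk2 and Ccne1 among others. Its Mki67 and Plk1 values rest on 11 and 7 reads. The 5 mitosis markers summed to 116, 124 and 134 in MCAO 1 to 3. Microglia marker sums, at 3436, 2535 and 3290 in MCAO 1 to 3, were lowest in MCAO 2. So were oligodendrocyte precursor marker sums, at 1926, 1673 and 2201. Sums of the other marker lists with genes in the table were lowest in MCAO 1 or MCAO 3. The part of any cell type in the changes of these genes was not tested.

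Other genes of the pathway were taken from 4 lists of 120 symbols that hold no member. Of the 120 symbols 78 were in the table and 68 were tested, and limma called 1 higher and 0 lower, where 2.3% and 0.789% of all tested genes were called. At an unadjusted p under 0.05, 10 were higher and 1 lower, where 10.1% and 9.16% of all tested genes were, and edgeR called 1 higher and 0 lower. The shares called higher are near those of all tested genes. Their median log2 change was 0.20. Among 25 tested genes of replication licensing and the fork, 20 changes were positive, with a median of 0.23. The 1 called was Gins4, a subunit of the replicative helicase complex that works with MCM2-7, at 27.3, 39.0 and 22.6 scaled reads in controls and 60.0, 65.3 and 63.9 after MCAO (log2 change 1.10, SE 0.28, limma adjusted p = 0.0468). Gins4 was called without control 2 but lost its call when any other 1 of the 6 libraries was dropped (adjusted p 0.0933 to 0.147), when no intensity trend was fitted (0.0819) and under quantile normalisation (0.0597). Of 38 listed spindle and checkpoint genes 17 were in the table and 11 were tested, with a median of 0.50 and 0 called by limma or edgeR (3 higher at an unadjusted p under 0.05). E2F and RB family genes had a median of -0.02 over 13 tested, and the regulators with p53 targets a median of 0.20 over 19, with 0 called by limma or edgeR in either list (1 higher and 1 lower, and 1 higher, at an unadjusted p under 0.05). Some listed genes were under the filter and not tested. In Kif20a, Cenpf, Tpx2, Knstrn, Gmnn and Tk1 every MCAO library lay above every control. Their controls were under 10.6, so these genes could enter the table only through their MCAO values. Mybl1 lay below every control after MCAO, and Kif4, Nuf2 and Uhrf1 overlapped.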

How the data were processed

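Ribosome-bound polyA RNA of 3 control and 3 MCAO mice was sequenced from Illumina TruSeq libraries, with 2 technical replicates per animal that stand as 1 column each. The deposited values are a signal: read counts per gene that the authors divided by 1 scale factor per library, as the values show (whole multiples of 1 step, to within 0.1 read, for 99.954% or more of values above the minimum). Per the submitters' processing notes, the build was mm10 and the tools were CASAVA 1.8, HISAT2, Partek 6.6, R 3.3.1 and DESeq2; how reads were counted, the strand setting and the gene filter were not given in the sources used here. Values under 1 stand at 1, which can hide up to 3 reads in control 1 and 1 read in MCAO 1 and MCAO 3. No gene has a largest value under 10.6. A count of 0 allows up to 3 reads, or 0.863 (control 1) to 9.33 (MCAO 2) scaled reads. Nothing says that reads from gene copies were split.

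limma 3.58.1 (R 4.3.3; intensity trend, two-sided) was fitted to log2(value + 1) over 12549 genes with a mean of at least 10; SE is moderated. edgeR 4.0.16 and DESeq2 1.42.0 on recovered reads were alternatives. All 3 were tested on simulated data. Replicate numbers follow record order and pair nothing. The members, lists and alternatives were chosen with earlier results of these data known. Named with values in every library were called members, members with a control at the minimum and, per role, those with the smallest p or highest mean; others are given where they complete a role. Coordinates and promoters are from RefSeq (GRCm38.p6, the assembly of mm10), where all 44 symbols matched.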

Additional observations from a re-analysis of the deposited data

How the results depend on the processing

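The number of members called higher, 6, was 5 to 9 under another pseudocount (0.1 or 5), no filter, quantile normalisation, TMM factors, no intensity trend, robust moderation, edgeR, DESeq2 or both shallowest libraries left out, and 1 (Ccnd1) at a mean of 50 or more, where fewer genes are tested. It was 1 to 5 with 1 library left out. Members called lower stayed at 0 in all 17 alternatives. Of all genes, 288 were called higher and 99 lower; these counts were 120 to 220 and 23 to 97 with 1 library left out, 139 and 18 with no intensity trend, 181 higher at a mean of 50 or more, 161 lower by DESeq2, and 236 lower without both shallowest libraries. Of the other cell cycle genes 1 was called higher; this was 0 at a mean of 50 or more, with quantile normalisation and with no intensity trend, 2 by DESeq2, 4 higher and 1 lower without both shallowest libraries, and 0 to 1 with 1 library left out (0 for 5 of the 6). Where no cause is named, the cause was not tested.

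In 660 refits of single members 604 kept their direction and side of the threshold, 22 lost the call, 12 gained it and 22 changed sign, and 0 of these last were called. With 1 library left out the log2 change ranged from -0.377 to 0.127 in Ccne2, -0.147 to 0.0467 in Cdk10, -0.630 to 0.0433 in Cdk12, -0.0677 to 0.110 in Cdk16, -0.0123 to 0.710 in Cdk6, -0.0999 to 0.0787 in Cdk8, -0.597 to 0.0385 in Cdkn1a, -0.0514 to 0.347 in Cdkn1c, -0.109 to 0.444 in Cdkn2aip and -0.104 to 0.212 in Cdkn2aipnl. Ccne2 was 0.0547 by edgeR and Cdk8 -0.0181 with quantile normalisation; without both shallowest libraries Ccne2 was 0.115, Cdk16 -0.147 and Cdk17 0.0202. Depth limits genes with few reads, above all in MCAO 2. No paired analysis was possible because the labels give the groups no shared replicate numbers.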
